A study of Mus musculus with 8 samples.

Results

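The CC chemokine genes Ccl3, Ccl4, Ccl5, Ccl6 and Ccl9, were followed in RAW264.7 cells, a macrophage-like line that was derived from a BALB/c mouse tumour. Every spot on the arrays that carries 1 of these gene names was used, apart from control spots. This gave 6 probes with 1 spot each (2 probes for Ccl5 and 1 for each of the other genes) of the 41174 probes on the array. Cells were exposed to the strain Lactobacillus acidophilus MTCC-10307 or to the strain Bacillus clausii MTCC-8326 (called by species below) at 100 bacteria per cell for 1, 2, 4 or 6 h. The reference in each case was untreated cells of the same time. The cells were kept in medium without antibiotic, with heat-inactivated serum. Equal shares of the RNA of 3 cultures were combined first, so each bacterium and time has 1 array, which sets treated RNA (Cy5) against untreated RNA (Cy3). The series title gives the kinetics of gene expression after exposure to potential probiotic strains as the purpose.

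CC chemokines are small secreted proteins with a pair of adjacent cysteines that draw leukocytes to a site by way of G-protein-coupled receptors. Macrophages are a main source of them, and their genes are switched on within hours of contact with bacterial products, in large part through the transcription factor NF-kB. Ccl3 and Ccl4 are macrophage inflammatory proteins 1-alpha and 1-beta, and Ccl5 is RANTES. Ccl3 and Ccl5 are ligands of the receptor Ccr1. Ccl6 and Ccl9 are mouse chemokines that also act through Ccr1.

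The first 30 bases of each 60-base probe are shown because they are part of what each signal was read with, and because closely related genes could share a probe's sequence. Coordinates are those of the array files (build mm9), with the strand as those files give it.
Ccl5 (RefSeq probe): tctcagctgctccgaggctctgcacagcaa
Ccl5 (RANTES cDNA probe): atcaactatttggagatgagctaggataga
Ccl9: caactaggatgaaataaattctgccttagc
Ccl6: aatgtgtctggttctgatacaagcttaagc
Ccl3: catgaactgacaaatgtacaatagatgctt
Ccl4: tattatttatgttttagttataggacgcgt
The Ccl5 RefSeq probe lies at chr11:83339296-83339355 on the minus strand. The other Ccl5 probe was designed on a RANTES cDNA and has no position in the array files. The Ccl9 probe lies at chr11:83388223-83388282, the Ccl6 probe at chr11:83401997-83402056 and the Ccl3 probe at chr11:83461358-83461417, all 3 on the minus strand. The Ccl4 probe lies at chr11:83478052-83478111 on the plus strand. The 5 mapped probes thus fall within 138816 bases of chromosome 11. Their place within exons or UTRs is not annotated in the array files and was not used here. Over the 15 pairs of probes the longest run of bases in common was 4 to 8 bases, so no stretch longer than 8 of 60 bases is shared between 2 of these probes. The probes were not compared with the transcripts of the other members, so binding of another member's RNA was not tested.

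Signals below are normalised intensities on a linear scale, and a log2 ratio is treated over untreated. The probes of Ccl3, Ccl4, Ccl5 and Ccl9 were well above background in both channels of all 8 arrays, and no spot was saturated. All 6 member probes were among the 21336 probes kept for testing, Ccl6 only through its treated channel on 3 arrays. Replicate spots of other probes had a median SD of 0.0966 to 0.130 on the log2 scale over the arrays. Of 10 macrophage markers 9 were well above background in both channels of all 8 arrays, against 1 of 5 T cell markers (Lck) and 0 of 4 each of B cell, fibroblast and epithelial markers. L. acidophilus arrays and B. clausii arrays were on 1 slide each, and time coincides with the position on the slide, so slide and bacterium, and position and time, cannot be told apart. Treated RNA always carried Cy5, so a constant shift of a probe cannot be told apart from a dye effect. The labels leave unsaid if a time's untreated RNA was 1 pool for the arrays of both bacteria.

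The treated signal of Ccl4 was high at 1 and 2 h and low at 4 and 6 h with both bacteria, while its untreated signal stayed between them. In RNA of whole cultures, a smaller share of cells that express Ccl4 and less Ccl4 RNA per cell cannot be told apart. With L. acidophilus the treated signal was 11509, 8048, 2454 and 2725 at 1, 2, 4 and 6 h, against 4817, 4371, 4377 and 4250 in untreated cells. With B. clausii it was 12588, 9483, 2456 and 3664, against 5098, 4645, 4219 and 5265 in untreated cells. The early treated signals were all above, and the late treated signals all below, every untreated signal. The share of all probes that separate in this way is not given here. The log2 ratio was 1.26, 0.88, -0.84 and -0.64 on the L. acidophilus arrays and 1.30, 1.03, -0.78 and -0.52 on the B. clausii arrays. These signs were the same on all 8 arrays with the processed signals, with median centring and with 3 other ways of background correction.

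Ccl3 crossed over in the same direction, but its untreated signal moved too. With L. acidophilus the treated signal was 3022, 3942, 3090 and 3576 at 1, 2, 4 and 6 h, against 1554, 2197, 3628 and 5341 in untreated cells. With B. clausii it was 4109, 3562, 2647 and 2086, against 1774, 2633, 3869 and 3867 in untreated cells. The untreated signals at 4 and 6 h lay above those at 1 and 2 h on every array, while early and late treated signals overlapped with L. acidophilus and not with B. clausii. How many of all probes separate like this is not given here. The log2 ratio of Ccl3 was 0.96, 0.84, -0.23 and -0.58 with L. acidophilus, and the value at 4 h turned to 0.03 with the processed signals. With B. clausii it was 1.21, 0.44, -0.55 and -0.89, and the value at 2 h turned to -0.01 with median centring. With the local background as deposited, the 1 h value with L. acidophilus was 0.40 and the 2 h value with B. clausii was 0.23.

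**Figure D1:**
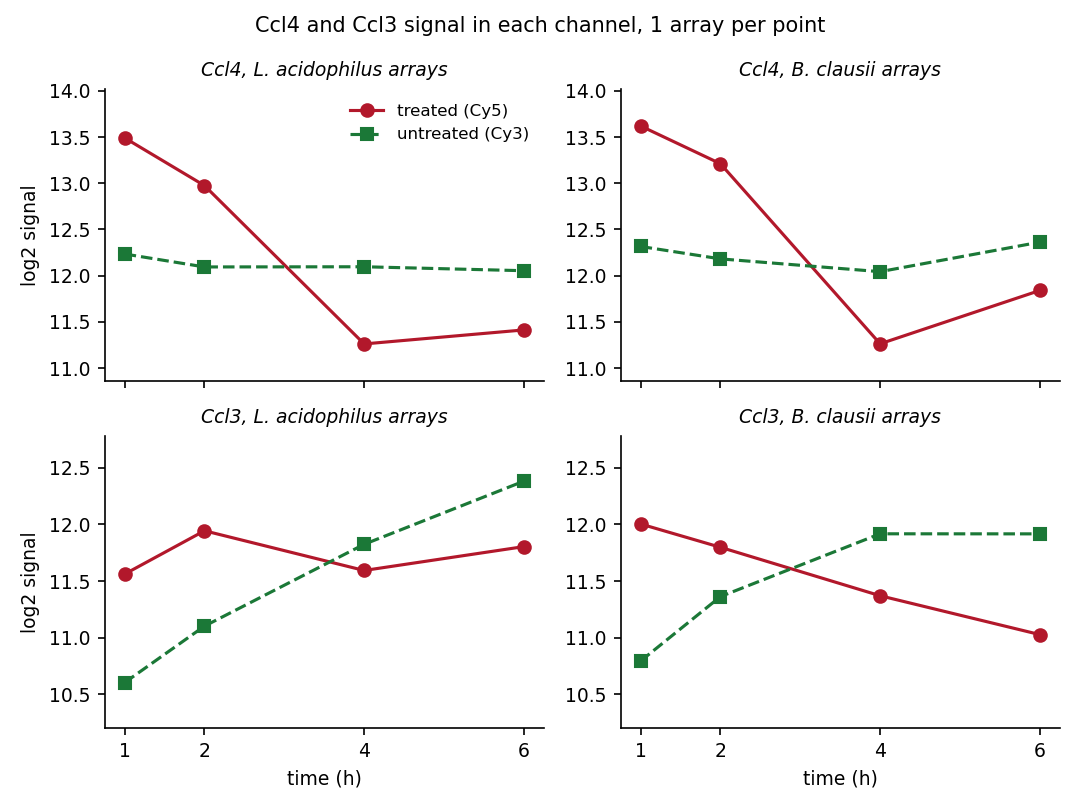
Normalised log2 signal (y axis) of Ccl4 (top) and Ccl3 (bottom) against time in hours (x axis), for treated cells (red circles, Cy5) and untreated cells (green squares, Cy3), with L. acidophilus arrays on the left and B. clausii arrays on the right. Each point is 1 array of pooled RNA, so there are no error bars; the treated line of Ccl4 drops between 2 and 4 h while its untreated line stays level, and the untreated line of Ccl3 is higher at 4 and 6 h than at 1 and 2 h.

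The change between early and late times was tested as the mean of 4 and 6 h minus the mean of 1 and 2 h over all 8 arrays, with limma and Benjamini-Hochberg adjustment over all 21336 probes. The late-minus-early ratio was called lower for 3 of the 6 member probes (Ccl4, Ccl3 and Ccl9) and higher for 0, where 11.3% of all probes were called lower and 11.7% higher. The ratio of Ccl4 fell by 1.81 ± 0.06 on the log2 scale (standard error; adjusted p = 2.24e-06). Only 1 probe of the 21336 had a lower value. The ratio of Ccl3 fell by 1.42 ± 0.10 (adjusted p = 0.000151), the fifth lowest of all probes. The median over the 6 member probes was -0.12, beside 0.0048 over all probes. The calls of Ccl4 and Ccl3 held under all 25 alternatives, with values of -1.98 to -1.65 for Ccl4 and of -1.65 to -1.16 for Ccl3.

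By bacterium, the late-minus-early ratio of Ccl4 was -1.81 on the L. acidophilus arrays and -1.82 on the B. clausii arrays. That of Ccl3 was -1.31 on the L. acidophilus arrays and -1.54 on the B. clausii arrays. The interaction of bacterium and phase was 0.01 ± 0.22 for Ccl4 (95% interval -0.48 to 0.51) and 0.24 ± 0.32 for Ccl3 (-0.47 to 0.94). No member probe passed this test, beside 0% of all probes higher and 0% lower. At an unadjusted p under 0.05 there were 269 probes (1.26%) and 0 members. The intervals are wide, so these data do not show that the bacteria acted alike.

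The channels were then tested apart. Of the member probes, the treated signal was called lower at the late times for 1 (Ccl4) and higher for 0, beside 6.27% of all probes lower and 6.66% higher. The untreated signal was called higher for 1 (Ccl3) and lower for 0, beside 0.951% of all probes higher and 0.384% lower. The treated signal of Ccl4 fell by 1.88 ± 0.09 log2 (adjusted p = 0.00348), to 0.272 of the early level. Its untreated signal differed by -0.07 ± 0.07 (adjusted p = 0.752). The untreated signal of Ccl3 rose by 1.05 ± 0.13 (adjusted p = 0.0352), while its treated signal differed by -0.38 ± 0.18 (adjusted p = 0.227). The labels leave unsaid if a time's untreated RNA was 1 pool for both bacteria. If so, the untreated standard error and p hold only scatter between arrays of the same RNA. The Ccl3 value in untreated cells lay between 0.78 and 1.31 in 24 alternatives but missed the threshold in 13 of them, with an adjusted p of up to 0.442. Leaving out the 1, 2 or 4 h L. acidophilus array or the 2 or 4 h B. clausii array was enough to lose it, with values of 0.97 to 1.13. With 5 other background or normalisation settings the untreated signals of Ccl3 at 4 and 6 h still lay above all those at 1 and 2 h, in 5 of 5. No share of all probes is given beside this separation.

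**Figure D2:**
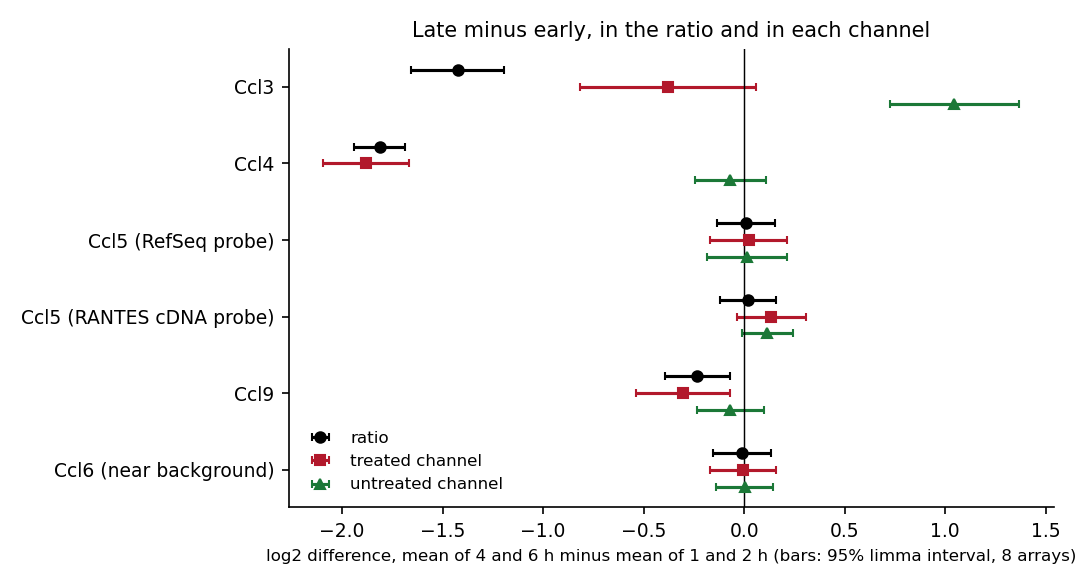
Difference between late (4 and 6 h) and early (1 and 2 h) times on the log2 scale (x axis) for each of the 6 member probes (rows), in the ratio of treated to untreated (black circles), the treated channel (red squares) and the untreated channel (green triangles). Bars are 95% limma intervals from 8 arrays; for Ccl4 the ratio and the treated channel sit together at -1.81 and -1.88, and for Ccl3 the untreated channel stands at 1.05.

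On single arrays, which have no replicate, Ccl4 was at least 2-fold higher in treated cells at 1 h with L. acidophilus (2.39-fold), and at 1 h (2.47-fold) and 2 h (2.04-fold) with B. clausii. Ccl3 was so at 1 h with B. clausii (2.32-fold). No member was past 2-fold in the lower direction. With median centring the log2 ratios with B. clausii were 0.51 for Ccl4 and 0.41 for Ccl3 at 1 h and 0.62 for Ccl4 at 2 h, all short of 2-fold, while Ccl4 at 4 h (-1.03) and Ccl3 at 6 h (-1.22) were past 2-fold lower. With L. acidophilus 0.164%, 0.0656%, 0.112% and 0.262% of all probes were past 2-fold in either direction at 1, 2, 4 and 6 h. With B. clausii the shares were 0.539%, 0.169%, 0.366% and 0.595%. By rank among the 21336 ratios of an array, Ccl4 was 9th and 27th highest at 1 and 2 h and 13th and 147th lowest at 4 and 6 h with L. acidophilus. It was 31st and 19th highest at 1 and 2 h and 141st and 1043rd lowest at 4 and 6 h with B. clausii.

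**Figure D3:**
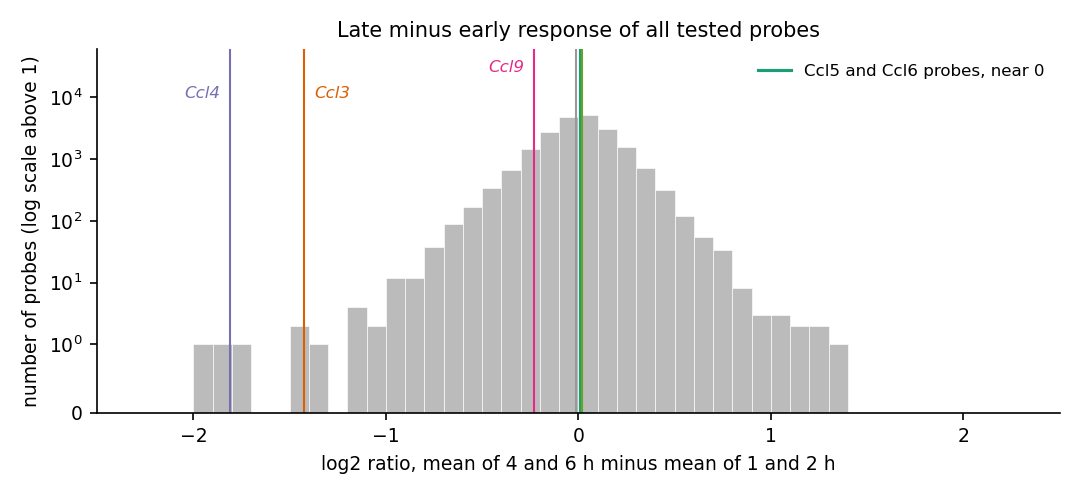
Number of probes (y axis, log scale above 1) by late-minus-early log2 ratio (x axis, bins of 0.1) over all 21336 tested probes, with the 6 member probes as vertical lines. Ccl4 at -1.81 and Ccl3 at -1.42 lie in the far left tail, Ccl9 at -0.23 lies in the body, and the Ccl5 and Ccl6 probes lie near 0.

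Ccl9 was higher in treated cells on 7 of 8 arrays, where median centring turned the 1 h value with B. clausii to a log2 ratio of -0.17. With L. acidophilus the treated signal was 23110, 25097, 17115 and 18281 at 1, 2, 4 and 6 h, against 19220, 18004, 14830 and 18587 in untreated cells. With B. clausii it was 28297, 24512, 23500 and 23701, against 18646, 17764, 17688 and 19374 in untreated cells. The treated and untreated signals overlapped with L. acidophilus and not with B. clausii, with no share of all probes given beside this. The log2 ratio was 0.27, 0.48, 0.21 and -0.02 on the L. acidophilus arrays and 0.60, 0.46, 0.41 and 0.29 on the B. clausii arrays. Its late-minus-early ratio was -0.23 ± 0.07 (adjusted p = 0.0451), and the call was lost in 18 of 25 alternatives, with values of -0.32 to -0.02. Among these were the fits without the 2, 4 or 6 h L. acidophilus array or the 1, 4 or 6 h B. clausii array, with values of -0.27 to -0.16.

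The log2 ratio of Ccl5 lay between -0.37 and 0.16 over both probes and all 8 arrays as normalised by loess. The RefSeq probe had treated signals of 648, 568, 663 and 556 at 1, 2, 4 and 6 h with L. acidophilus, against 737, 649, 655 and 654 in untreated cells. With B. clausii it had 654, 711, 736 and 672, against 716, 728, 707 and 856 in untreated cells. Its largest log2 ratio in size was -0.35, at 6 h with B. clausii, while median centring gave -0.85 at 1 h with B. clausii. The RANTES cDNA probe had treated signals of 183, 187, 225 and 191 at 1, 2, 4 and 6 h with L. acidophilus, against 203, 241, 246 and 246 in untreated cells. With B. clausii it had 232, 268, 278 and 260, against 228, 259, 249 and 265 in untreated cells. The treated signal was thus the lower on all 4 L. acidophilus arrays for this probe, and on 3 of 4 for the RefSeq probe. Late minus early was 0.01 ± 0.06 for the RefSeq probe and 0.02 ± 0.06 for the RANTES cDNA probe, and neither passed (adjusted p = 0.937 and 0.856).

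**Figure D4:**
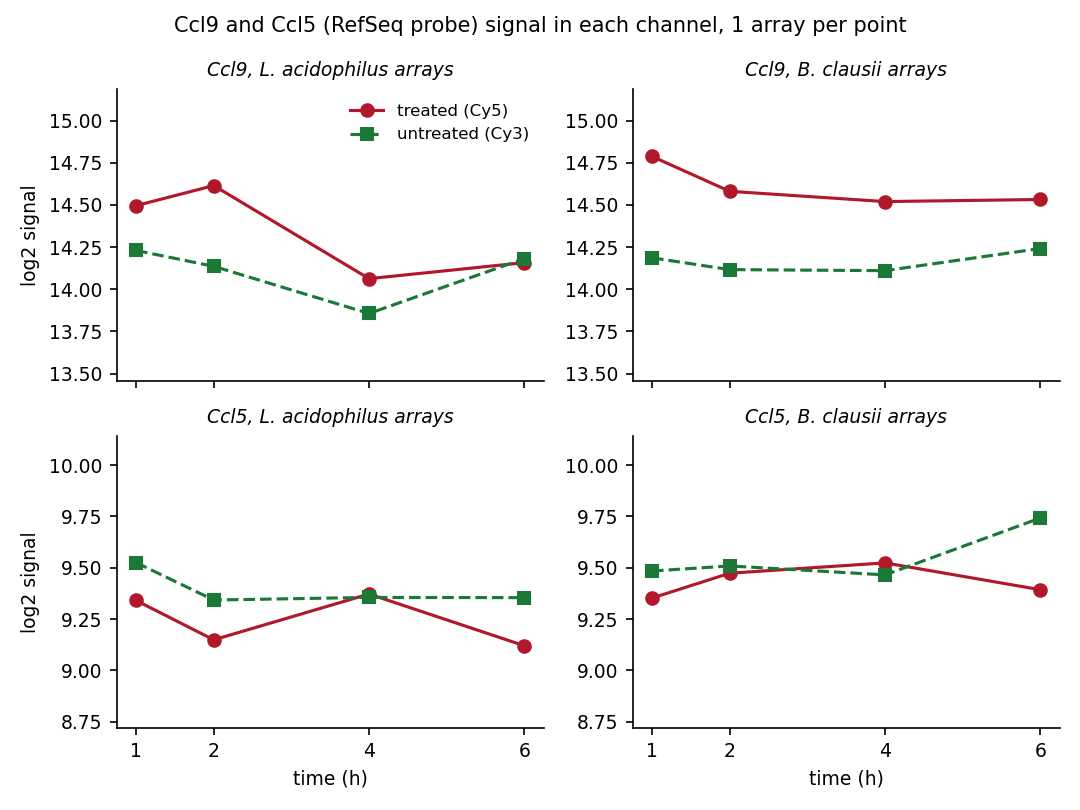
Normalised log2 signal (y axis) of Ccl9 (top) and of the Ccl5 RefSeq probe (bottom) against time in hours (x axis), for treated cells (red circles, Cy5) and untreated cells (green squares, Cy3), with L. acidophilus arrays on the left and B. clausii arrays on the right. Each point is 1 array; the treated line of Ccl9 lies above the untreated line except at 6 h with L. acidophilus, and the Ccl5 lines lie close together.

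Ccl6 was near background, with treated signals of 81.3 to 95.1 against 78.5 to 92.2 in untreated cells over the 8 arrays. The untreated channel was well above background on no array and the treated channel on 3, namely 2 and 4 h with L. acidophilus and 2 h with B. clausii. No fold or direction is read from those 3 arrays, since detection in the treated channel alone picks them. On the other 5 arrays the signal was not well above background in either channel.

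Averaged over the 4 times, 5 of the 6 member probes passed with L. acidophilus, 3 higher and 2 lower, where 21.1% of all probes were called higher and 19.9% lower. Ccl3 stood at 0.25 ± 0.07 (adjusted p = 0.0231), Ccl4 at 0.17 ± 0.04 (adjusted p = 0.0104) and Ccl9 at 0.23 ± 0.05 (adjusted p = 0.0066). Both Ccl5 probes were lower, the RefSeq probe at -0.15 ± 0.04 (adjusted p = 0.0264) and the RANTES cDNA probe at -0.25 ± 0.04 (adjusted p = 0.0025). The last of these calls held in all 24 alternatives that could be run, while those of Ccl3 and of the Ccl5 RefSeq probe were each lost in 9 of 25. The call of Ccl9 was lost in 5 of 25, and that of Ccl4 was lost in 5 and its direction turned in 2. With B. clausii 2 member probes passed, both higher (Ccl9 at 0.44 ± 0.05, adjusted p = 0.000199, and Ccl4 at 0.26 ± 0.04, adjusted p = 0.000954), beside 20.2% of all probes higher and 23.8% lower. For Ccl3 and Ccl4 these means add ratios of opposite sign, and they turn with the times and the scaling. Without both 1 h arrays the mean of Ccl4 was -0.20 on the L. acidophilus arrays and -0.09 on the B. clausii arrays, and median centring gave -0.19 with B. clausii. Median centring also took the B. clausii mean of Ccl9 to 0.07 (adjusted p = 0.439), which ended its call. It took that of the Ccl5 RefSeq probe to -0.54 (adjusted p = 4.04e-06). The median of all kept probes then lay at -0.43 to -0.13 over the B. clausii arrays. The share of all probes called lower in that setting is not given.

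The difference between the bacteria passed for no member. In L. acidophilus minus B. clausii 0 of 6 probes passed (2 at an unadjusted p under 0.05), where 0.9% of all probes were called higher and 0.37% lower. The lowest adjusted p was that of the Ccl5 RANTES cDNA probe, at -0.30 ± 0.06 (adjusted p = 0.0551), and the other Ccl5 probe stood at -0.03 ± 0.06 (adjusted p = 0.774). Ccl9 was at -0.21 (95% interval -0.37 to -0.05, adjusted p = 0.141), Ccl3 at 0.20 (-0.04 to 0.43) and Ccl4 at -0.09 (-0.22 to 0.04).

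**Figure D5:**
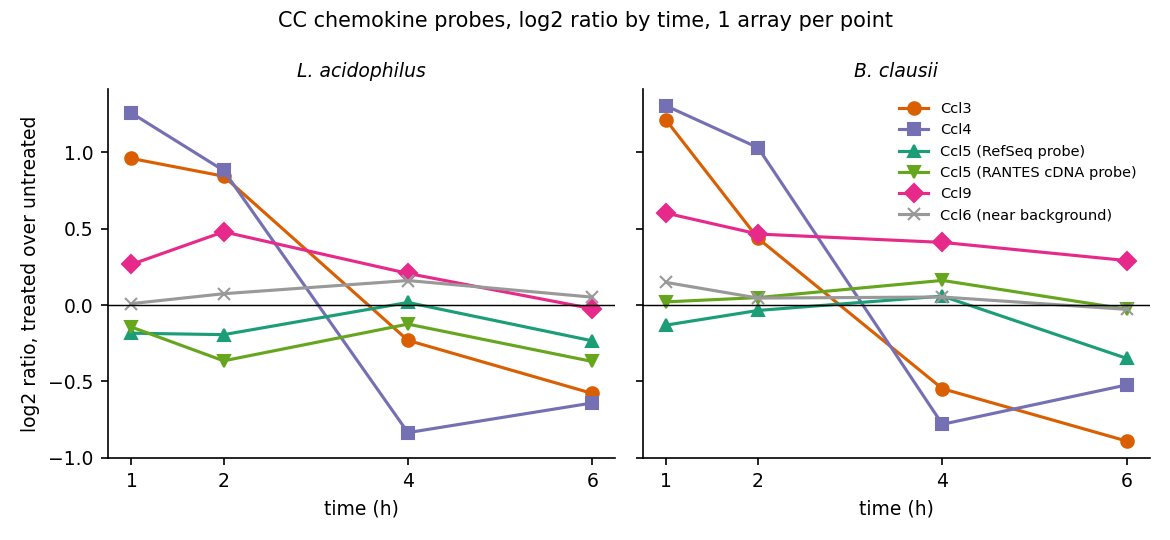
Log2 ratio of treated over untreated cells (y axis) against time in hours (x axis) for the 6 member probes, with L. acidophilus on the left and B. clausii on the right; each point is 1 array. Ccl3 and Ccl4 start above 0 and end below it with both bacteria, Ccl9 stays above 0 on 7 of 8 arrays (1 of them, at 1 h with B. clausii, turns with median centring), and the Ccl5 and Ccl6 probes stay near 0.

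Among the 15 other CC ligands listed, 4 were measured (Ccl2, Ccl7, Ccl25 and Ccl28), and late minus early was lower for 2 of them and higher for 0, beside 11.3% of all probes lower and 11.7% higher. Ccl2, a monocyte attractant, was at -0.80 ± 0.19 (adjusted p = 0.0156) and Ccl25, a thymus and gut chemokine, at -0.54 ± 0.08 (adjusted p = 0.00279). Averaged over the times, Ccl2 and Ccl7, another monocyte attractant, were the 2 of 4 called higher with either bacterium, and 0 were lower. Of all probes 21.1% were called higher and 19.9% lower with L. acidophilus, and 20.2% higher and 23.8% lower with B. clausii. Of the 11 CC receptors 2 were measured (Ccr6 and Ccr9), and none passed late minus early. Averaged over the times, 1 of them, Ccr6, was called higher with L. acidophilus (0.19 ± 0.04, adjusted p = 0.00743) and with B. clausii (0.14 ± 0.04, adjusted p = 0.0272). Ccr6 was well above background in the treated channel on 6 arrays and in the untreated channel on 2. Its log2 signals reached only 6.73 treated and 6.59 untreated. No direction is read from its calls, since it was near background and detected more often in the treated channel. Ccr1, the receptor of Ccl3, Ccl5, Ccl6 and Ccl9, was well above background on no array, and neither was Ccr2, the receptor of Ccl2 and Ccl7. Of the 5 atypical receptors, which bind chemokines without the usual signalling, 2 were measured (Ackr1 and Ccrl2). Averaged over the times, Ccrl2 was called higher with L. acidophilus (0.17 ± 0.04, adjusted p = 0.0113), and both were called higher with B. clausii (Ackr1 at 0.19 ± 0.05, adjusted p = 0.0111, and Ccrl2 at 0.23 ± 0.04, adjusted p = 0.00202). Ccrl2 was well above background in the treated channel on 4 arrays and in the untreated channel on 1. For Ackr1 these counts were 3 and 2. No direction is read from these calls near background. Neither of the 2 atypical receptors passed late minus early.

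Of the 18 genes of receptor signalling 17 were measured. Averaged over the times, 6 were higher and 2 lower with L. acidophilus, beside 21.1% and 19.9% of all probes. With B. clausii 5 were higher and 2 lower, beside 20.2% and 23.8% of all probes. Rgs16, a regulator of G-protein signalling, stood at 0.54 ± 0.04 with L. acidophilus (adjusted p = 0.000102), and Gnai2, a G-protein subunit, at -0.28 ± 0.05 (adjusted p = 0.00291). Rgs1 stood at 0.75 ± 0.07 (adjusted p = 0.000192) and Rgs2 at 0.63 ± 0.06 (adjusted p = 0.000127) with L. acidophilus. Late minus early was higher for 3, lower for 1 and not passed for 13, with a median of -0.0040 beside 0.0048 over all probes. Rgs2, which shortens G-protein signalling, was at 0.35 ± 0.08 (adjusted p = 0.0141), and Rgs1, of the same family, did not pass at -0.32 ± 0.10 (adjusted p = 0.0539). The 1 called lower was Arrb1, at -0.51 ± 0.06 (adjusted p = 0.0012). Of the 23 regulators of chemokine transcription and mRNA 21 were measured. Averaged over the times, 6 were higher and 4 lower with L. acidophilus and 8 were higher and 4 lower with B. clausii, to be read against the same shares of all probes. Late minus early had 2 higher, 8 lower and 11 not passed, with a median of -0.09, beside 11.7% of all probes higher and 11.3% lower. Those lower included Atf3, a stress-induced transcription factor (-0.55 ± 0.06, adjusted p = 0.000659), Nfkbiz, an NF-kB cofactor (-0.50 ± 0.06, adjusted p = 0.000771), Nfkb1, an NF-kB subunit (-0.37 ± 0.08, adjusted p = 0.00901), and Tnfaip3, which dampens NF-kB (-0.23 ± 0.06, adjusted p = 0.0309). The largest fall among these regulators was that of Irf8 (-0.88 ± 0.06, adjusted p = 0.000136). Irf3 (-0.59 ± 0.08, adjusted p = 0.0017), Zfp36l1 (-0.33) and Nfkbia (-0.43) were called lower too. The NF-kB subunits Rela (0.13, adjusted p = 0.156), Relb (0.07, adjusted p = 0.457) and Nfkb2 (-0.17, adjusted p = 0.0854) did not pass. The 2 called higher were Fos (0.78 ± 0.06, adjusted p = 0.000257) and Fosl1 (0.22 ± 0.06, adjusted p = 0.0364). Of the 10 macrophage markers, 4 were lower and 0 higher in the same comparison, beside the same 11.3% and 11.7% of all probes, with a median of -0.10, and their part in the chemokine values was not tested.

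Over the 8 arrays the log2 ratios of Ccl3 and Ccl4 had a Pearson r of 0.931, as a description of arrays that share slides and times. Among 4819 genes whose log2 ratio spans at least 0.5 over the arrays, that of Traf1, an NF-kB-induced adaptor of tumour necrosis factor receptors, was most like that of Ccl4 (r = 0.997, 8 arrays). Plaur, the urokinase receptor gene (r = 0.984), and Cers6, a ceramide synthase gene (r = 0.980), came next. Traf1 itself had log2 ratios of -1.11 to -0.40, all below 0, so the likeness is of shape and not of level. Most like Ccl3 were Zfp239 (r = 0.992), Thumpd3 (r = 0.990) and Mettl15 (r = 0.980), and most like Ccl9 were Slc35b1 (r = 0.968), Clip1 (r = 0.968) and Mcu (r = 0.961). For the Ccl5 RefSeq probe they were Peak1 (r = 0.956), Arl4c (r = 0.943) and Fnip1 (r = 0.936), and for Ccl6, whose ratios are near background, Olfr1270 (r = 0.940), Paics (r = 0.847) and Mis12 (r = 0.833).

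Promoter windows of Ccl3, Ccl6 and Ccl9 (250 bases before to 50 after the RefSeq start, build GRCm38.p6) were searched on both strands for the NF-kB motif, the AP-1 motif TGANTCA, the C/EBP motif TTNNGNAA and the TATA motif TATAAA. The windows of Ccl3 and Ccl9 are shown, since Ccl3 turned with time and Ccl9 was higher on average with both bacteria, with the matches in capitals.
Ccl3, chr11:83649329-83649628, minus strand: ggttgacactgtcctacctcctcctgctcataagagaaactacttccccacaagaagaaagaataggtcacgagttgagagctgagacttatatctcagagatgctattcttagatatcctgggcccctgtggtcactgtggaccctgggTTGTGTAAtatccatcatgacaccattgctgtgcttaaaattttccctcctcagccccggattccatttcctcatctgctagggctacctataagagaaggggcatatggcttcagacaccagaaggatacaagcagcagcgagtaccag
Ccl9, chr11:83578587-83578886, minus strand: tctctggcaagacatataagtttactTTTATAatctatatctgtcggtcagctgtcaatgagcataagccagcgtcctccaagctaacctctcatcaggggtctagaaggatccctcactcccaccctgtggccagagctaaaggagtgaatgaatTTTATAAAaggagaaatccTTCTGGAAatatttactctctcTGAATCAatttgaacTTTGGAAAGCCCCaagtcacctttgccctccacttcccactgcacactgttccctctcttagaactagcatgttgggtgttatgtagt
The Ccl3 window held 1 match, for C/EBP, 100 bases before the start. The Ccl9 window held an NF-kB match 35 bases before the start, an AP-1 match 53 bases before, and C/EBP matches 75 and 38 bases before, of which the nearer overlaps the NF-kB match. TATA matches began 224, 94 and 92 bases before the start, and the last 2 overlap. Of 32851 promoter windows, 8.46% held the NF-kB motif, 7.81% AP-1, 40.7% C/EBP and 13.6% TATA. The Ccl6 window held none of the 4, and 74 aligned columns of it were 79.7% identical to the Ccl9 window.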

How the data were processed

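RNA of RAW264.7 cells was measured on 8 two-colour Agilent arrays. Per the file headers, the deposited intensity columns hold each spot's mean foreground and median local background in both channels. Processed intensities had background removed and dyes normalised by Agilent Feature Extraction, per the file headers (version 10.7.3.1 in the headers, 10.5.1.1 in the submitters' processing notes). The deposited log10 ratios are red over green processed signal, per the file headers, and the series matrix of log10 ratio values deposited by the authors is the same numbers rounded (differences under 0.005). Flags of 0 or 1 per spot are also in the deposited files, under other measures.

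Here, background was corrected by normexp (offset 50), after local backgrounds over 3 times the median of their array, where Feature Extraction marked them as outliers, had been replaced by that median and those spots dropped. Ratios were normalised by loess within arrays, and single channels by Aquantile between arrays, using R 4.3.3 with the packages limma (3.58.1), data.table (1.17.8) and statmod (1.5.0). Outlier-flagged spots were left out, which left 549 probes with no spot on some array. A probe was kept where 2 or more arrays had it well above background in either channel (21336 probes of 14856 genes), and 14337 were so in both channels of all 8 arrays. Limma (lmFit, eBayes) fitted bacterium and time with 3 residual degrees of freedom, and the 4 cells of bacterium and phase with 4 for the interaction, at an adjusted p under 0.05. The spread of the first fit comes from how far the bacteria disagree at a time, that of the second from the 2 times within a phase, and neither holds scatter between cultures, so p-values do not measure the spread of cultures. The number of arrays limits the precision. Values after ± are standard errors. The scripts were tested on simulated data.

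All probes of the 5 genes were named, and up to 4 genes of each list, those with the largest mean ratio. Fos, Fosl1, Arrb1, Irf8, Irf3, Zfp36l1 and Nfkbia were named besides, for their late-minus-early calls. Rela, Relb and Nfkb2 were named as the other NF-kB subunits measured. The genes most like a member were the 3 with the highest r. Probes were matched to current names by RefSeq accession (27670), symbol (5589) or synonym (471), and 7444 kept the name of the file. Members and lists were chosen with earlier results of these data known. Alternatives were other signals, background corrections, normalisations, filters, models and thresholds and leaving out arrays; quantile normalization between arrays was added after seeing the data.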

Additional observations from a re-analysis of the deposited data

Results flagged for a closer look

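The ratios of 3 genes differed between the late and the early times by a test of the difference itself. The ratio of treated to untreated signal, mean of 4 and 6 h minus mean of 1 and 2 h over both bacteria, was -1.81 ± 0.06 for Ccl4 (standard error, 8 arrays, limma adjusted p = 2.24e-06). It was -1.42 ± 0.10 for Ccl3 (adjusted p = 0.000151) and -0.23 ± 0.07 for Ccl9 (adjusted p = 0.0451). The call of Ccl9 was lost in 18 of 25 alternatives (values of -0.32 to -0.02, adjusted p up to 0.923), and those of Ccl4 and Ccl3 in 0 of 25. With both bacteria the ratios of Ccl3 and Ccl4 were above 0 at 1 and 2 h and below 0 at 4 and 6 h, except that Ccl3 turned at 4 h with L. acidophilus with the processed signals (0.03) and at 2 h with B. clausii with median centring (-0.01). Time coincides with the position of the array on its slide on both slides, and the part of position in these values cannot be told apart from that of time.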

How the results depend on the processing

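The late-minus-early calls of Ccl4 and Ccl3 held in all 25 alternatives, and 2 or 3 member probes were called in each. The filter on both channels left out Ccl6, and the brightest probe of each gene left out the Ccl5 RANTES cDNA probe. Beyond the pairing of the bacteria by time, which the fit of bacterium and time holds, no paired analysis was possible because each group has 1 array, with replicate number 1. The count of member probes called with L. acidophilus, 5 as reported, was 3 with a normexp offset of 0, 2 with the local background as deposited, 2 with median centring, 1 with no time term, 3 without both 1 h arrays and 1 without both 2 h arrays. Leaving out 1 array gave 1 (without the 4 h L. acidophilus array) to 5, with 3 without the 1 h and 2 without the 2 h L. acidophilus array. With B. clausii the count of 2, both higher, was 1 with no time term and 1 without both 2 h arrays. It was 4 with median centring, all lower: Ccl3, Ccl4 and both Ccl5 probes (the RefSeq probe at -0.5437), without Ccl9 (0.06737). In that setting the median of all kept probes was also below 0 on every B. clausii array, from -0.43 to -0.13. The share of all probes called lower there is not given, so these 4 calls are not read as particular to the members. No such share is given for the other settings either. For L. acidophilus minus B. clausii the count of 0 was 1 with median centring, 1 with the filter on both channels of all 8 arrays, 1 with a trended robust prior and 1 at an adjusted p under 0.1. In the treated channel the count of 1 was 2 at an adjusted p under 0.1, 0 without both 1 h arrays, and 1 to 2 with single arrays left out (2 without the 6 h L. acidophilus array). In the untreated channel the count of 1 (Ccl3) was 0 with the processed signals, a normexp offset of 0, median centring, phase in place of the 4 times, and without both arrays of any of the 4 times. It was 0 to 1 with single arrays left out, 0 without the 1, 2 or 4 h L. acidophilus or the 2 or 4 h B. clausii array.

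Means over the times reversed in 7 cases, counting only those where the reported or the changed value passed. Changes of sign where neither passed were not counted. Without both 1 h arrays Ccl4 was at -0.1986 with L. acidophilus and at -0.09127 with B. clausii, and Ccl3 at -0.334 with B. clausii. Without both 2 h arrays Ccl4 was at -0.07327 with L. acidophilus. With median centring, under which the median of the kept probes lay at -0.43 to -0.06 over the arrays, B. clausii gave -0.4063 for Ccl3, -0.1871 for Ccl4 and -0.2507 for the Ccl5 RANTES cDNA probe. The cause of these changes was not tested, except that the arrays left out hold the ratios above 0. Of all results for single probes, 937 kept direction and call or were never called, 63 lost a call and 11 gained one. Signal over background limits Ccl6.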
